A study of Mus musculus with 6 samples.

Results

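The genes described are 10 regulators and readouts of cellular senescence and of the p53 pathway: Cdkn1a, Cdkn2a, Cdkn2c, Cdkn2d, Trp53, Trp53inp1, Mdm2, Lmnb1, Gdf15 and Plaur. They were chosen by symbol, through the GENCODE M21 annotation, from the 35598 gene identifiers of each deposited table, and all 10 were present there. They were measured by RNA sequencing of CAMs (CNS-associated macrophages), which line the meninges, vessels and choroid plexus, sorted from the brains of male C57BL/6 mice as CD206+ cells that carried CD11b and CD45 and lacked CD3. The groups were 3 libraries from mice aged 18 months (aged) and 3 from mice aged 2 months (young), with no other treatment or allele named. The labels do not say whether a library came from 1 animal or from several, so the p-values measure only how these libraries differ among themselves, and that spread may be technical in origin.

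Cellular senescence is a lasting arrest of the cell cycle. It is held in place by inhibitors of cyclin-dependent kinases (CDKs): p21, encoded by Cdkn1a, and the INK4 proteins p16 (Cdkn2a), p18 (Cdkn2c) and p19 (Cdkn2d), which block CDK4 and CDK6 and so keep the retinoblastoma protein active. The transcription factor p53, encoded by Trp53, responds to DNA damage and other stress. It switches on Cdkn1a, Trp53inp1 and Mdm2, and the Mdm2 protein in turn marks p53 for degradation. Loss of lamin B1 (Lmnb1), secretion of the cytokine GDF15 (Gdf15) and display of the urokinase receptor (Plaur) are commonly read as signs of senescence, while Plaur is also carried by activated myeloid cells.

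The aged libraries held 30596555, 32902649 and 30044347 counts and the young libraries 33306093, 26605077 and 28302369. The border macrophage genes checked, such as Mrc1 (CD206), Pf4 and Cd163, were detected in every library, and 13 of 13 such markers were above 0 in each. Their summed level was 18531, 9036 and 15470 CPM (counts scaled to a common library size) in the aged libraries and 28215, 30558.5 and 26835 CPM in the young ones. Pf4 weighed most in this sum, with a mean of 4772 CPM in aged and 12703 CPM in young libraries. Of the 13 markers, 6 were lower in each aged library (7.19% of all genes tested), while 2 had a log2 fold change above 0 in edgeR. Cd163 averaged 193 CPM in aged and 196 CPM in young libraries. Markers of microglia summed to 11084, 18432 and 14653.5 CPM in aged and 7482, 5833 and 8393 CPM in young libraries. Neutrophil markers summed to 21813, 8234 and 23.7 CPM in aged and 38202, 12052 and 14523 CPM in young libraries, and erythroid markers to 9863, 9096 and 153 CPM in aged and 13796, 10106 and 30477 CPM in young libraries. Aged replicate 3 thus stood apart by its near lack of neutrophil and red cell transcripts. Choroid plexus epithelium markers summed to 1043, 572 and 8222 CPM in aged and 1461, 1118 and 12027 CPM in young libraries. Replicate 3 was the highest at both ages. Monocyte markers ran from 118 to 459 CPM in aged and from 99.9 to 566 CPM in young libraries, T and NK cell markers from 7.99 to 159 CPM in aged and from 16.7 to 93.9 CPM in young, and B cell markers from 228 to 261 CPM in aged and from 159 to 358 CPM in young. Neuron markers ran from 9.17 to 32.2 CPM in aged and from 35.02 to 116 CPM in young libraries, astrocyte and oligodendrocyte markers from 233 to 661 CPM in aged and from 184 to 239 CPM in young, and endothelial and mural markers from 17.8 to 30.7 CPM in aged and from 21.6 to 40.7 CPM in young. In such bulk samples, fewer cells of a type and less RNA per cell cannot be told apart.

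In 3 of these genes the ages did not overlap. Every aged value of Cdkn1a and Cdkn2d lay above every young value, every aged value of Trp53inp1 lay below, and the remaining members overlapped between ages or were hardly detected. None passed the test across all genes. With edgeR's quasi-likelihood test, 0 of the 7 members that could be tested were called higher or lower at an adjusted p under 0.05, where 0.00938% of the 10661 genes tested were called higher (1 gene) and 0% lower. Before adjustment, 2 members were higher at p under 0.05, where 3.63% of all genes were, and 1 was lower, where 2.04% were (5.67% in either direction). The DESeq2 Wald test called 1 member higher (Cdkn2d) and 1 lower (Trp53inp1), where it called 2.05% and 1.43% of genes, and limma-voom called 0, with 1 member higher and 1 lower before adjustment, where 936 of 10661 genes had p under 0.05. Groups without overlap were found in 7.54% of tested genes with aged higher and in 7.19% with aged lower, 14.7% in all, against 2 and 1 of the members.

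The sequences upstream of Cdkn1a and Cdkn2d are shown because these were the 2 members higher in every aged library. Each is the stretch of 250 bases before a RefSeq transcript start in GRCm38.p6, written 5′ to 3′ on the strand of the gene. Capitals mark matches to a GC box (GGGCGG), the CCAAT motif, a p53 half-site or a full p53 response element, on either strand. Cdkn1a has 2 annotated starts. The windows are chr17:29090729-29090978 and chr17:29093519-29093768 on the plus strand for Cdkn1a and chr9:21291210-21291459 on the minus strand for Cdkn2d.
Cdkn1a, first start: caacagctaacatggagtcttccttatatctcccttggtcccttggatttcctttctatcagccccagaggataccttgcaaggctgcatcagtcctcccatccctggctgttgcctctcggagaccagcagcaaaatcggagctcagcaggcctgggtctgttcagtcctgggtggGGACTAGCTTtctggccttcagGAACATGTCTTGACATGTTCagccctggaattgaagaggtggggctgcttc
Cdkn1a, second start: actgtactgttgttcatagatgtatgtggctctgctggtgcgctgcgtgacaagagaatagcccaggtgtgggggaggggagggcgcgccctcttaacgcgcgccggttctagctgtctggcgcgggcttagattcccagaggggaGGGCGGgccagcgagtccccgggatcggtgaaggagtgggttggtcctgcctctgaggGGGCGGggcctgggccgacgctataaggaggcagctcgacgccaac
Cdkn2d: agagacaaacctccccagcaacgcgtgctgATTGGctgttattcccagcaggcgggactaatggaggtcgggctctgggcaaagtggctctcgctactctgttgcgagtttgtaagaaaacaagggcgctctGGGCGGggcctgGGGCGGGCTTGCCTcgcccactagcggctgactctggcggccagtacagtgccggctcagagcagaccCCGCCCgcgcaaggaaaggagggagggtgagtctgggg

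The first Cdkn1a window held a full p53 response element, a pair of adjacent half-sites without a spacer and with 1 mismatch allowed, at chr17:29090928-29090947. It lies 51 bases before the first start and 2841 bases before the second, where a p53 element of this gene is well known. Such a match, a search added after the sequence had been seen, occurred in 25 of 32851 promoter windows of the same length (0.0761%), and a single half-site in 7.13%. The first Cdkn1a window also held a separate half-site, 73 bases before the first start. The Cdkn2d window held 1 half-site, which overlapped a GC box. It also held 3 GC boxes and 1 CCAAT box, found in 32.7% and 33.8% of windows, and the second Cdkn1a window held 2 GC boxes. A TATA box (TATAAA, in 12.4% of windows), an E-box (CACGTG, 6.02%) and an E2F site (TTTCGCGC or TTTGGCGC, 0.654%) were not among the letters of these 3 windows. These matches describe sequence only. Of the 10 members, 8 had a window in the table.

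Cdkn1a, the p21 gene, did not overlap between ages. It had 1262, 658 and 1723 counts in the aged libraries and 240, 114 and 364 in the young libraries. Scaled to depth, these were 43.8, 17.0 and 60.9 CPM in aged and 7.68, 4.24 and 13.0 CPM in young libraries. The lowest aged library lay above the highest young one, and the mean was 40.6 ± 22.1 CPM in aged and 8.32 ± 4.42 CPM in young CAMs (SD, n = 3 each), a ratio of 4.88. The log2 fold change was 2.29 (SE 0.92), which did not pass over all genes (edgeR adjusted p = 0.808; unadjusted p = 0.0325). Without aged replicate 3 it was 1.88 (SE 1.11, edgeR unadjusted p = 0.126). The gene lies in mm10 on chromosome 17 from 29090976 to 29100727. It shares 273 exonic bases with an opposite-strand entry of unsettled type, whose reads could not be told apart from its own because the kit does not mark strand, while the other members overlap no annotated gene.

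Cdkn2d, the p19 INK4 gene, showed the widest separation among the members higher with age. It had 320, 365 and 1487 counts in aged libraries and 12, 37 and 32 in young libraries. The levels were 11.1, 9.46 and 52.6 CPM in aged and 0.384, 1.38 and 1.14 CPM in young libraries, so that each aged value was several times the highest young one. The mean was 24.4 ± 24.4 CPM in aged and 0.969 ± 0.519 CPM in young CAMs (SD, n = 3 each), a ratio of 25.2 in which aged replicate 3 carried most of the aged mean. The log2 fold change of 4.65 (SE 1.49) did not pass over all genes by edgeR (adjusted p = 0.663; unadjusted p = 0.0113), but was called by DESeq2 (adjusted p = 0.00201). It was 3.41 (SE 1.94, edgeR unadjusted p = 0.115) without aged replicate 3. Cdkn2d lies on chromosome 9 from 21288410 to 21291407.

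All aged libraries likewise exceeded all young ones in the microglia sum and lay below them in the border macrophage sum, and the part of either in the Cdkn1a and Cdkn2d values was not tested. Both genes were highest in aged replicate 3, the library with the lowest neutrophil sum (23.7 CPM, with 7 of 15 neutrophil markers at 0) and the lowest erythroid sum (153 CPM, with 4 of 9 markers at 0). The same library had the highest astrocyte and oligodendrocyte sum (661 CPM) and, among the aged libraries, the highest choroid plexus sum (8222 CPM). It also held the fewest genes with 5 counts or more (9875). The microglia sum in aged replicate 3 was 14653.5 CPM, between those of aged replicates 1 and 2 (11084 and 18432 CPM). The part of any of these in the Cdkn1a and Cdkn2d values was not tested.

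**Figure D1:**
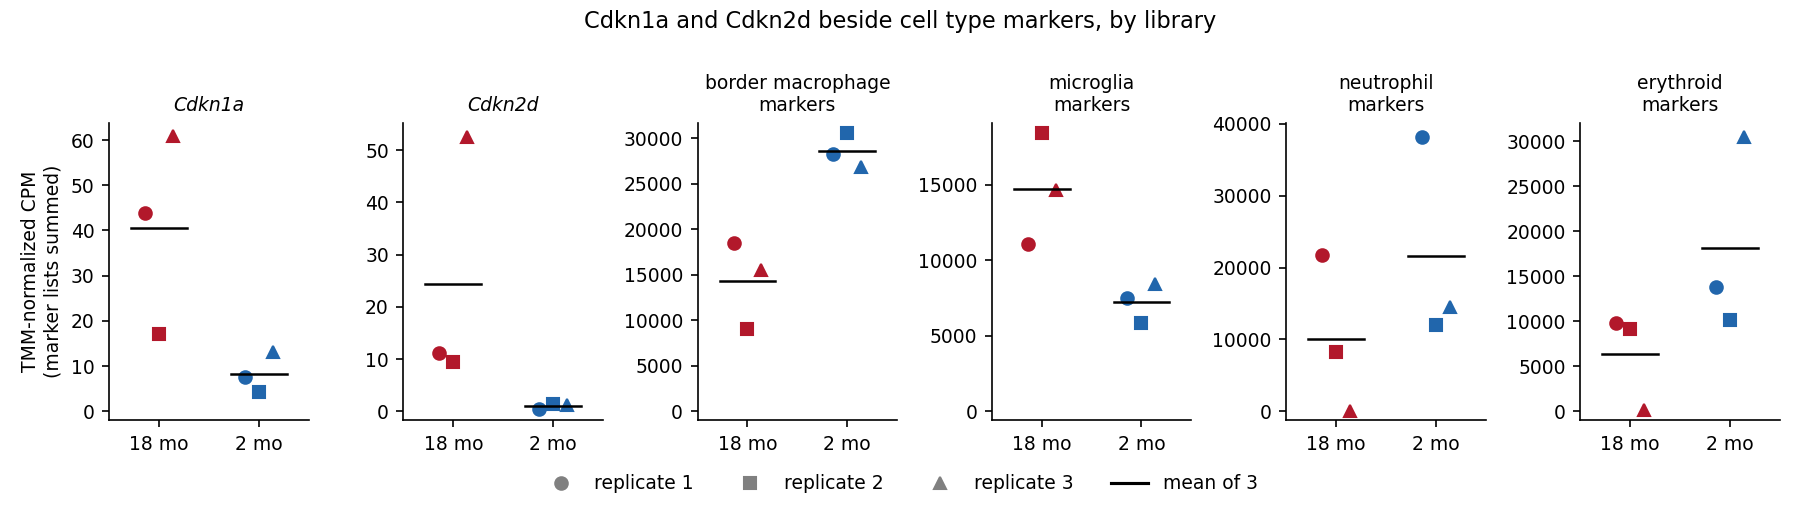
Cdkn1a and Cdkn2d in TMM-normalized CPM beside the summed CPM of 4 marker lists, for 3 libraries at 18 months (red) and 3 at 2 months (blue). Symbols give the replicate and bars the mean of 3. Both genes and the microglia sum were higher in each aged library, and the border macrophage sum was lower. Aged replicate 3, where both genes were highest, had a neutrophil sum of 23.7 CPM. It also differed in marker sums not drawn here.

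The other INK4 genes did not share this pattern. Cdkn2a, whose locus encodes both p16 and the p53 activator p19ARF, had 0 counts in all 6 libraries, which allows at most 3 counts per library, or 0.0777 to 0.112 CPM. Its neighbour Cdkn2b, the p15 gene, had 31 counts in aged replicate 2 and 0 in the other libraries. Cdkn2a lies on chromosome 4 from 89274471 to 89294653.

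Cdkn2c, the p18 gene, had 11.8, 13.0 and 1.38 CPM in aged libraries and 27.0, 26.2 and 4.47 CPM in young libraries. The third replicate was the low one at both ages, and the groups overlapped. The mean was 8.72 ± 6.39 CPM in aged and 19.2 ± 12.8 CPM in young CAMs (SD, n = 3 each; edgeR log2 fold change -1.14 with SE 1.31 and adjusted p = 0.993). Cdkn2c lies on chromosome 4 from 109660876 to 109667189.

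Trp53 itself, the gene of p53, was spread widely in aged CAMs. It had 51.5, 41.4 and 3.43 CPM in aged libraries and 9.67, 27.9 and 27.1 CPM in young libraries. Aged replicates 1 and 2 lay above every young library and aged replicate 3 below every one. The mean was 32.1 ± 25.3 CPM in aged and 21.5 ± 10.3 CPM in young CAMs (SD, n = 3 each; edgeR log2 fold change 0.57 with SE 1.02 and adjusted p = 0.993). Without aged replicate 3 the log2 fold change was 1.11 (SE 0.79, edgeR adjusted p = 0.963), and on log2(TPM + 1) in limma it was -0.09 (SE 0.91). Trp53 lies on chromosome 11 from 69580359 to 69591873.

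Mdm2, which encodes the ubiquitin ligase that degrades p53, rested on 1 young library. It had 8.999, 13.9 and 0.141 CPM in aged libraries and 59.7, 2.90 and 6.08 CPM in young libraries. Young replicate 1 held 1866 of the 2114 young counts, and the groups overlapped. The mean was 7.69 ± 6.99 CPM in aged and 22.9 ± 31.9 CPM in young CAMs (SD, n = 3 each; edgeR log2 fold change -1.57 with SE 1.66 and adjusted p = 0.993), and without young replicate 1 the sign turned (0.77, SE 2.19). Mdm2 lies on chromosome 10 from 117688875 to 117710758.

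Trp53inp1, a p53 target whose protein takes part in autophagy and cell death, was hardly detected in the aged libraries. It had 0, 8 and 0 counts in aged libraries and 54, 117 and 877 in young libraries. The levels were 0, 0.207 and 0 CPM in aged and 1.73, 4.35 and 31.4 CPM in young libraries, and every aged value lay below every young one. The erythroid, neuron and border macrophage sums were also lower in each aged library, and their part in this was not tested. The mean was 0.0691 ± 0.120 CPM in aged and 12.5 ± 16.4 CPM in young CAMs (SD, n = 3 each), with young replicate 3 carrying most of the young mean. The gene passed the low-count filter through its young libraries alone (3 of 3 over the filter, against 0 aged), so that it had to differ to be tested at all. Its fitted log2 fold change of -7.37 (SE 2.65) did not pass over all genes by edgeR (adjusted p = 0.751; unadjusted p = 0.0200), was called by DESeq2 (adjusted p = 0.0109) and had an unadjusted p = 0.0738 in edgeR without young replicate 3 (log2 fold change -5.35). Trp53inp1 lies on chromosome 4 from 11156431 to 11174379.

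Aged replicate 3 divided the members. Of the 6 libraries it had the highest Cdkn1a and Cdkn2d and the lowest Trp53, Mdm2 and Cdkn2c. It was also the library with the fewest genes at 5 counts or more (9875), and what set these levels was not tested. Aged replicate 2 had the highest Plaur, and young replicate 1 the highest Mdm2 and Cdkn2c.

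**Figure D2:**
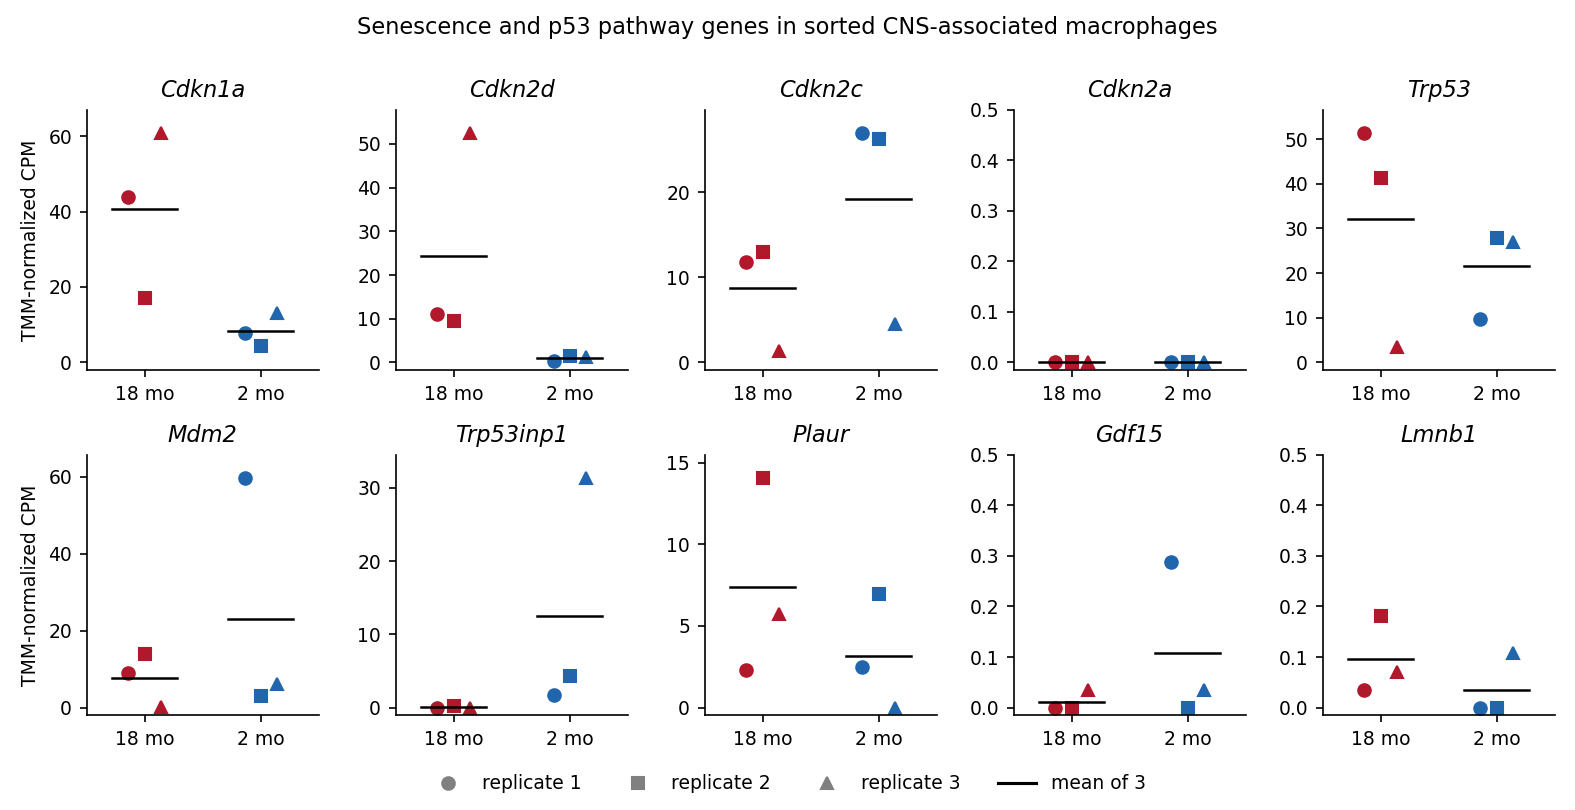
Level of each member in TMM-normalized CPM for 3 libraries at 18 months (red) and 3 at 2 months (blue), on a linear axis of its own per gene. Symbols give the replicate and bars the mean of 3. Cdkn1a and Cdkn2d did not overlap with aged higher and Trp53inp1 with aged lower, Cdkn2a was at 0 throughout, and Gdf15 and Lmnb1 stayed under 0.3 CPM.

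Of the genes read as signs of senescence, only Plaur was expressed at a level that could be tested. Plaur, the urokinase receptor gene, had 2.33, 14.1 and 5.73 CPM in aged libraries and 2.50, 6.96 and 0 CPM in young libraries. The groups overlapped, with means of 7.37 ± 6.04 CPM in aged and 3.15 ± 3.53 CPM in young CAMs (SD, n = 3 each; edgeR log2 fold change 1.23 with SE 2.09 and adjusted p = 0.993). Plaur lies on chromosome 7 from 24462484 to 24475968.

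Gdf15, the stress cytokine gene, had 0, 0 and 1 counts in aged libraries and 9, 0 and 1 in young libraries. Lmnb1, the lamin B1 gene, had 1, 7 and 2 counts in aged libraries and 0, 0 and 3 in young libraries. Both lay under the filter (10 counts in a library of median size, in 3 libraries), and a difference was not detectable at this depth. In mm10, Gdf15 lies on chromosome 8 from 70629393 to 70632456 and Lmnb1 on chromosome 18 from 56707813 to 56753424.

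Levels between genes were compared per length, in the TPM (counts scaled to transcript length and depth) of the deposited tables. In aged CAMs Cdkn1a had the highest mean at 19.6 ± 7.23 TPM, though Trp53 exceeded it in aged replicate 2 (16.8 against 12.7 TPM), followed by Cdkn2d at 11.5 ± 10.4, Trp53 at 10.8 ± 8.64, Cdkn2c at 4.91 ± 4.01, Plaur at 3.89 ± 3.02 and Mdm2 at 2.204 ± 2.63 TPM (SD, n = 3). In young CAMs the order of these TPM levels was Cdkn2c at 8.90 ± 5.89, Trp53 at 7.70 ± 0.846, Mdm2 at 6.45 ± 3.82, Cdkn1a at 3.48 ± 0.941, Plaur at 1.66 ± 1.46, Trp53inp1 at 0.979 ± 1.30 and Cdkn2d at 0.359 ± 0.193 TPM (SD, n = 3). Neighbours in both orders overlapped in their range over libraries, so their order is not fixed by these data. By mean, Cdkn1a stood above all other members in aged CAMs and below Cdkn2c, Trp53 and Mdm2 in young CAMs, and Cdkn2d came next to Cdkn1a in aged CAMs and last of the tested members in young CAMs. The transcript length that the authors' quantification assigned to a gene varied between libraries, for Mdm2 between 2053 and 3007 bases in aged and between 602 and 2575 bases in young libraries, which moves TPM but not counts. For Trp53 it was 747, 1544 and 1755 bases in the young libraries. Its young TPM (7.455, 8.647 and 7.01) lay closer together than its young CPM (9.67, 27.9 and 27.1).

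**Figure D3:**
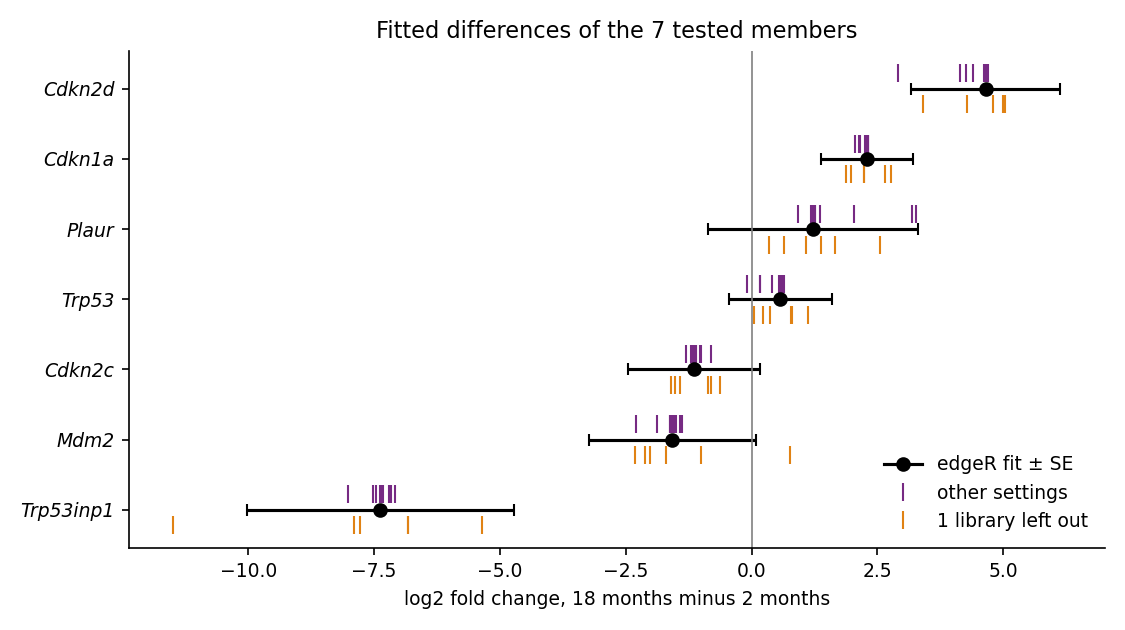
Log2 fold change, 18 months minus 2 months, of the 7 tested members. Points and bars are the edgeR fit ± SE, purple ticks the other settings and orange ticks the fits with 1 library left out. Cdkn1a and Cdkn2d stayed above 0 and Trp53inp1 and Cdkn2c below 0 in each fit that tested them, while Trp53 and Mdm2 each crossed 0 once.

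The wider p53 programme showed no call. Of 38 further p53 target genes 27 were tested, and 0 were called higher or lower by edgeR. Before adjustment, 2 were higher and 0 lower at p under 0.05 (3.63% and 2.04% of all genes), and the median log2 fold change was 0.27, against -0.02 over all genes tested. Bax, the pore-forming effector of apoptosis, averaged 74.4 ± 11.5 CPM in aged and 29.7 ± 8.99 CPM in young CAMs (SD, n = 3 each) without overlap (edgeR log2 fold change 1.33 with SE 0.53 and adjusted p = 0.808). Rrm2b, the p53-induced ribonucleotide reductase subunit, had 344, 760 and 588 counts in aged and 9, 13 and 9 in young libraries (edgeR log2 fold change 5.57 with SE 1.62 and adjusted p = 0.619). Rrm2b met the filter through its aged libraries, with 1 of its 3 young libraries above it. It and Aen, an apoptotic nuclease gene with 241, 188 and 585 counts in aged and 53, 37 and 40 in young libraries, were picked after their values were seen. The most abundant targets, Btg1 (161 ± 38.7 CPM in aged, 190 ± 17.2 in young CAMs) and Sesn1 (93.9 ± 6.76 CPM in aged, 84.8 ± 22.4 in young CAMs), both overlapped between ages.

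Among regulators of p53 no gene was called. Of 23 listed, 18 were tested and 0 passed adjusted in edgeR. At an unadjusted p under 0.05 there were also 0, where 5.67% of all genes were. The median log2 fold change was -0.15. The most abundant were Rpl23 (765 ± 326 CPM in aged, 1029 ± 97.1 in young CAMs) and Rpl11 (489 ± 186 CPM in aged, 741 ± 91.0 in young CAMs), ribosomal proteins that also bind Mdm2. Rpl11 was lower in each aged library, and Usp7, a deubiquitinase of Mdm2 and p53 named after its values were seen, was higher in each (22.4 ± 18.3 CPM in aged, 4.07 ± 2.02 in young CAMs).

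Among 21 other CDK inhibitors and partners on the retinoblastoma axis, 16 were tested and 0 were called by edgeR, with 2 higher and 0 lower at an unadjusted p under 0.05 (3.63% and 2.04% of all genes) and a median log2 fold change of 0.71. Ccnd2, which encodes cyclin D2, the activating partner of the kinases that INK4 proteins block, averaged 88.5 ± 36.3 CPM in aged and 26.02 ± 18.1 CPM in young CAMs (SD, n = 3 each) without overlap (edgeR log2 fold change 1.77 with SE 0.72 and adjusted p = 0.817). The kinase gene Cdk4, named after its values were seen, averaged 67.3 ± 35.8 CPM in aged and 24.5 ± 4.26 CPM in young CAMs, with overlap. Rb1, the retinoblastoma gene itself, was at 71.7 ± 29.1 CPM in aged and 85.8 ± 37.9 CPM in young CAMs.

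Proliferation genes gave no call either. Of 30 listed, 18 were tested, 0 were called by edgeR, 2 were higher and 0 lower at an unadjusted p under 0.05 (3.63% and 2.04% of all genes), and the median log2 fold change was 0.47. Those 2, Mcm4 (52, 320 and 523 counts in aged and 4, 1 and 6 in young libraries) and Aurkb (47, 153 and 39 counts in aged and 1, 3 and 2 in young libraries), were named after their values were seen. Every young value of both genes lay under the filter of 0.330 CPM, so they were tested only because their aged libraries were high and had to differ. The most abundant, Pcna (62.1 ± 16.6 CPM in aged, 69.2 ± 80.2 in young CAMs) and Cenpf (45.9 ± 26.2 CPM in aged, 66.2 ± 19.0 in young CAMs), overlapped between ages.

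In the lamina and chromatin list, 20 of 23 genes were tested and 0 were called by edgeR, with 1 higher and 0 lower at an unadjusted p under 0.05 (3.63% and 2.04% of all genes) and a median log2 fold change of -0.37. That gene, Lmnb2, encodes the other B-type lamin and had 153, 140 and 50 counts in aged and 0, 4 and 0 in young libraries. It was named after its values were seen and passed the filter through its aged libraries. Without regard to p, 2 genes of the list were higher in every aged library (7.54% of all genes) and 3 lower (7.19%). Beside Lmnb2 the higher one was the heterochromatin protein gene Cbx5 (18.9 ± 10.6 CPM in aged, 3.41 ± 2.10 in young CAMs). The lower ones were Tmpo, a lamina-associated protein gene (16.4 ± 7.53 CPM in aged, 48.6 ± 16.8 in young CAMs), the heterochromatin protein gene Cbx3 (43.8 ± 13.2 CPM in aged, 67.9 ± 8.45 in young CAMs) and Hmga2, which encodes a chromatin protein (0.209 ± 0.125 CPM in aged, 1.40 ± 0.720 in young CAMs). These 4 were also named after their values were seen. Hmga2, with 10, 4 and 5 counts in aged and 67, 19 and 38 in young libraries, passed the filter through its young libraries alone. It thus had to differ to be tested at all. The most abundant were the histone variant gene H2afz (773 ± 266 CPM in aged, 970 ± 62.7 in young CAMs) and Hmgb1, a chromatin protein and alarmin gene (416 ± 122 CPM in aged, 341 ± 44.1 in young CAMs).

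Of 48 genes for secreted and surface proteins linked to senescent cells, 31 were tested and 0 were called by edgeR. At an unadjusted p under 0.05 in edgeR, 4 were higher and 3 lower (3.63% and 2.04% of all genes). The median log2 fold change was 0.10. Serpine2, a protease inhibitor gene, averaged 170 ± 120 CPM in aged and 38.1 ± 10.2 CPM in young CAMs (SD, n = 3 each). Axl, the gene of a receptor for dying cells, averaged 103 ± 27.5 CPM in aged and 34.01 ± 6.12 CPM in young CAMs, and the metalloprotease inhibitor gene Timp2 295 ± 97.0 CPM in aged and 130 ± 29.6 CPM in young CAMs. None of these 3 overlapped between ages. The gelatinase gene Mmp9, which neutrophils also carry, averaged 9.78 ± 6.61 CPM in aged and 54.8 ± 26.8 CPM in young CAMs, again without overlap. The chemokine gene Ccl8 averaged 4349 ± 2304 CPM in aged and 1827 ± 650.01 CPM in young CAMs and was higher in each aged library. Ccl7 (635 ± 193 CPM in aged, 1855 ± 609 in young CAMs) and Ccl2 (158 ± 60.5 CPM in aged, 597 ± 305 in young CAMs), both chemokines that draw monocytes, were lower in each. Without regard to p, 6 genes of the list were higher in every aged library (7.54% of all genes) and 6 lower (7.19%).

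Of 15 genes of plasminogen activation, the system of the Plaur receptor, 8 were tested and 0 were called by edgeR, with Serpine2 (also counted above) the 1 gene at an unadjusted p under 0.05, where 5.67% of all genes were, and a median log2 fold change of 0.22. The most abundant besides it was S100a10, a plasminogen receptor subunit gene (88.0 ± 22.7 CPM in aged, 127 ± 72.1 in young CAMs). Of 18 genes listed for the integrated stress response, a programme that can induce Gdf15, 11 were tested and 0 were called by edgeR. At an unadjusted p under 0.05 in edgeR, 1 was higher and 0 lower (3.63% and 2.04% of all genes). The median log2 fold change was -0.28. Nupr1, a stress-induced chromatin regulator gene, averaged 127 ± 38.5 CPM in aged and 44.8 ± 1.19 CPM in young CAMs (SD, n = 3 each) without overlap (edgeR log2 fold change 1.502 with SE 0.43 and adjusted p = 0.619). The chaperone gene Hspa5 (488 ± 159 CPM in aged, 355 ± 110 in young CAMs) and Xbp1 (177 ± 121 CPM in aged, 118 ± 55.2 in young CAMs) were the most abundant on the list. Both serve the related response to misfolded proteins. Eif2ak2, a kinase gene of the integrated stress response named after its values were seen, was lower in each aged library (16.01 ± 12.6 CPM in aged, 29.3 ± 2.502 in young CAMs).

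**Figure D4:**
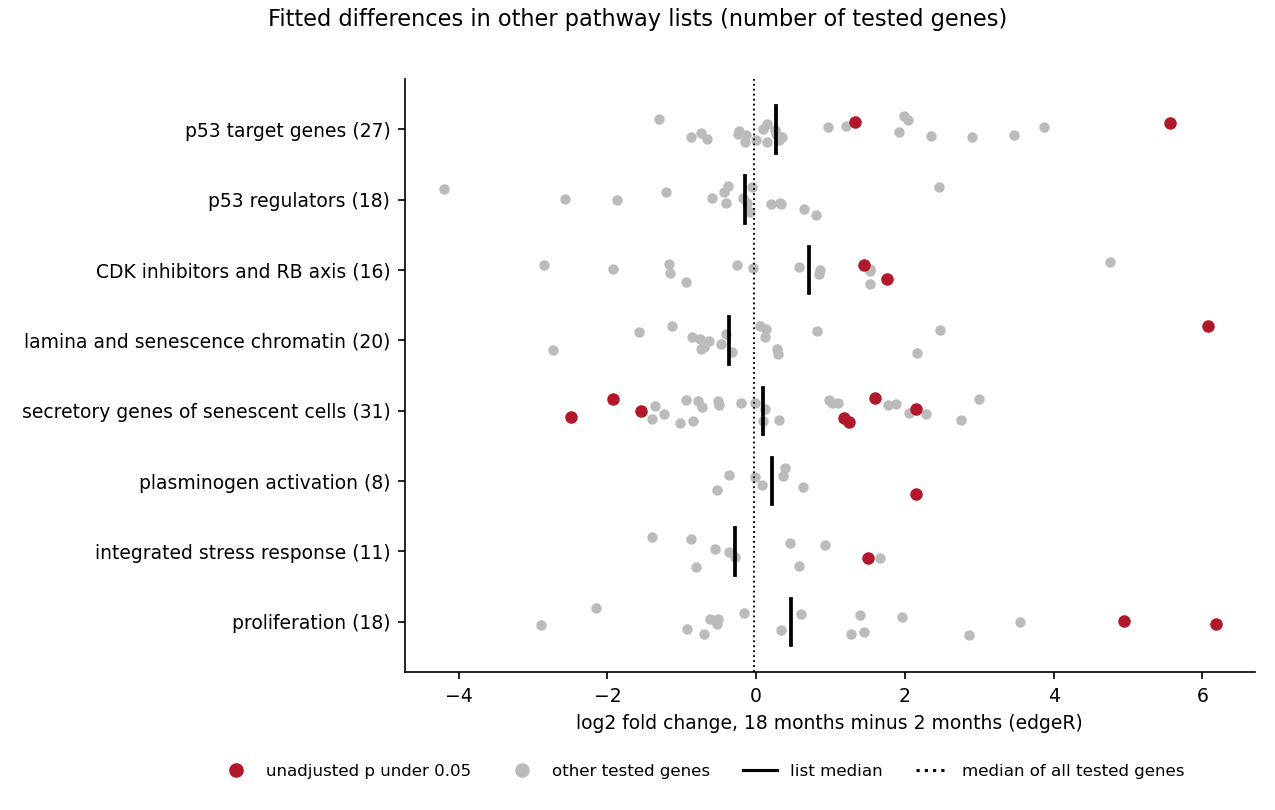
Log2 fold change, 18 months minus 2 months, of every tested gene in the 8 other pathway lists. Red points have an unadjusted edgeR p under 0.05, black bars are list medians (from -0.37 to 0.71) and the dotted line is the median of all 10661 genes (-0.02). No gene shown passed over all genes tested.

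The profiles of the 2 most abundant members were set against the 2189 tested genes that averaged 50 CPM or more, by the root mean square difference of centred log2 CPM over the 6 libraries. Nearest to Cdkn1a were Oser1 (0.49), Cul1 (0.49), the scaffold of a ubiquitin ligase, and Samsn1 (0.49), an immune adaptor gene. Oser1 had 160, 142 and 264 CPM in aged and 32.2, 34.5 and 95.0 CPM in young libraries. Nearest to Trp53 were Rbm5 (0.49), a splicing regulator gene, Wdr61 (0.62) and Fermt3 (0.63), the gene of the integrin activator kindlin-3. Rbm5 had 127, 122 and 22.3 CPM in aged and 53.8, 138 and 123 CPM in young libraries, low in aged replicate 3 as Trp53 was. With 6 libraries these distances are descriptions.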

How the data were processed

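Per the labels' protocols, CAMs were sorted from brains of 2- and 18-month-old male mice, cDNA was made with a low-input template-switching kit, amplified and tagmented, and single reads were sequenced. Per the submitters' processing notes, the tools were DRAGEN, Picard, fastp, FastQC and bcl2fastq 2.20, and the build was mm10; what each did, and which annotation was used, is not given in the sources used here. Per the file headers, each deposited table holds estimated counts per gene, TPM that the authors computed from them, and transcript lengths in bases, used here to describe Mdm2 and Trp53. The estimated counts, 90.2% to 92.9% of them whole, were rounded here. Identifiers were matched to GENCODE M21 without version (35513 of 35598).

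The test was that of edgeR 4.0.16, run in R 4.3.3 (filterByExpr, TMM, robust quasi-likelihood F test, aged against young, no covariate), adjusted by Benjamini-Hochberg over 10661 genes, two-sided, and called at an adjusted p under 0.05. The script was tested on simulated data. SE was obtained by dividing the size of the log2 fold change by the root of F. Floors are 3 counts and cover counting error only, since PCR reads without molecular identifiers are not independent molecules. The gene-wise coefficient of variation was 82.9% to 157% for the tested members and had a median of 117% over all genes. Promoter windows are from RefSeq (GRCm38.p6).

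The members and lists were chosen with earlier results of these data known. The naming rule took the members, up to 3 genes per list and direction with an unadjusted p under 0.05, an average of 10 CPM or more and no overlap, the 2 most abundant of each list, and the 3 genes nearest to each of the 2 most abundant members. Alternatives were DESeq2 1.42.0, limma 3.58.1 (voom, and trend on TPM), other scalings and filters, non-robust dispersion, a replicate block and each library left out.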

Additional observations from a re-analysis of the deposited data

How the results depend on the processing

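Genes called higher (1) and lower (0) became 51 and 11 with no low-count filter, 19 and 6 among genes averaging 50 CPM or more, which left no member to test, and 261 and 182 in the DESeq2 Wald test. The count higher was 0 in limma-voom, where 936 genes had p under 0.05 before adjustment, and 0 with quality weights (954 genes). With any single library left out, it ranged from 0 to 2, and the count lower from 0 to 1. Members called higher and lower (0 and 0 in edgeR) became 1 and 1 in DESeq2 and stayed at 0 and 0 in every other setting. Cdkn1a kept its direction in 17 of 17 alternatives (log2 fold change 1.88 to 2.78, adjusted p 0.131 to 0.952), Cdkn2d in 16 of 16 (2.90 to 5.03), Trp53inp1 in 15 of 15 (-11.48 to -5.35), Cdkn2c in 17 of 17 and Plaur in 16 of 16. Trp53 was -0.093 on log2(TPM + 1), a scale on which the median of all genes was 0.22 against -0.02 in edgeR, and Mdm2 was 0.77 without young replicate 1 (range -2.31 to 0.77 over the libraries left out). The causes were not tested. At these depths the 3 members under the filter could not be compared.

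Over all genes, same-numbered libraries of the 2 ages did not deviate together (correlations of -0.01, -0.03 and 0.02), so the numbers were not taken as pairs. A correlation over all genes cannot show a link limited to some of them. Replicate 3 had the highest choroid plexus sum (8222 CPM in aged, 12027 in young) and the lowest Cdkn2c (1.38 CPM in aged, 4.47 in young) at both ages. With the replicate block, 1 gene was called higher and 0 lower, 0 members were called, and the log2 fold changes were 2.25 for Cdkn1a, 4.41 for Cdkn2d and -8.02 for Trp53inp1.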
